A study of Mus musculus with 24 samples.

Results

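H3K4me3, trimethylation of lysine 4 on histone H3, was mapped by chromatin immunoprecipitation and sequencing (ChIP-seq) in leukemic splenocytes of Eµ-TCL1A mice on a C57BL/6 background. Described here are the 1075 regions that were listed as unique to wild-type cells and lay over 5000 bp from any region listed for both conditions (distant WT regions). Regions listed as unique to the wild type are called WT regions, those unique to the knockdown KD regions, and those of both conditions common regions. The distant WT regions were taken from 5015 WT regions on autosomes 1 to 14 and 16 to 19, and from 63425 regions in the 3 lists of the whole series. The members were chosen by the WT listing, whose regions all score above 3, and by the gap to the nearest common region, so neither is a result. WT regions were 8.58% of the 58479 regions listed on these 18 autosomes, and nothing is read from that share because it was part of the rule.

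Both conditions carry the TCL1A transgene, which the Eµ enhancer of the immunoglobulin heavy chain drives in B cells and which gives a disease like chronic lymphocytic leukemia. The wild-type cells had no treatment and the other condition is labelled as KDM1A knockdown. Per condition there were 3 biological replicates, each split into 2 technical replicates, which gave 6 H3K4me3 and 6 input libraries. The labels state neither the age and sex of the animals nor the means of knockdown. Since the cells were analysed in bulk, fewer cells with a mark and less of the mark per cell cannot be told apart.

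H3K4me3 is laid down by SET1 and MLL methyltransferase complexes and marks the start sites of active genes. At enhancers, H3K4 is mainly monomethylated, with H3K4me3 low or absent. KDM1A (LSD1) demethylates H3K4 that bears a single methyl group or a pair of them, works with CoREST and histone deacetylases in repression, and cannot act on the trimethylated form directly. H3K4me3 far from other marked sites can lie at isolated gene starts, alternative starts or strongly active enhancers. Which of these the distant WT regions occupy was not analysed here, because the gene table at hand is for another genome build.

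The deposited lists give 1 comparison of the conditions as a whole, with a score per region that the authors deposited and that the headers do not define. They hold no value per library and no read depth. Differences between the conditions could therefore not be set against the spread between animals, and no p-value is given. Intervals are 95% Wilson intervals for shares and order-statistic intervals for medians. They reflect counting error alone, as if every region were independent, so the range over the 18 chromosomes is given as a second measure of spread.

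Distant WT regions made up 21.4% (20.3 to 22.6%) of the WT regions on these chromosomes and 28.8% of their covered length, 894 of 3105 kb. By chromosome the share had a median of 20.7% and ran from 15.6% on chromosome 17 to 30.9% on chromosome 1. The same distance rule took 1920 of 13088 KD regions, 14.7% (14.1 to 15.3%), and the WT share was the higher on 16 of 18 chromosomes. For scale, 22.4% (22.0 to 22.8%) of the 40376 common regions lay over 5000 bp from any other common region. KD regions were also 22.4% of all listed regions on these chromosomes.

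The distant WT regions were long for one-sided regions. Their median length was 561 bp (518 to 604 bp), with quartiles of 329.5 and 1035.5 bp and a range of 200 to 8866 bp. WT regions at 5 kb or less from a common region had a median of 411 bp (400 to 420 bp), and distant KD regions one of 374 bp (361 to 387 bp). The distant WT median exceeded both on 18 of 18 chromosomes, where it ran from 422 bp on chromosome 13 to 660.5 bp on chromosome 3. Among KD regions too the distant ones were the longer, as KD regions at 5 kb or less had a median of 334 bp (331 to 338 bp). Common regions, which reach 25835 bp, had a median of 873 bp.

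Among WT regions alone, length did not fall steadily with distance from shared marks. The median was 423 bp for the 3389 WT regions that touched a common region, 310 bp for the 323 within 1 kb but without contact, 361.5 bp for the 228 at 1 to 5 kb, and 561 bp beyond. The regions in the space just beside a shared mark were thus the shortest, and the distant regions the longest. A WT region in contact with a common region is bounded by it, so its length depends on the listing. The comparison of nearer and distant lengths is therefore partly set by the rule and is a description only. Of the 160 WT regions of at least 2000 bp, 79 were distant, a share of 49.4% (41.7 to 57.0%).

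The long tail carried most of the covered sequence. The 204 distant WT regions of 1000 to 2000 bp covered 30.9% of the members' length and the 78 over 2000 bp another 26.7%. At the other end, 203 regions of up to 300 bp covered 5.64%. Of all distant WT and KD regions, WT regions made up a larger share of the longer classes. The share was 25.5% (22.6 to 28.6%) of regions up to 300 bp, 42.0% (38.4 to 45.6%) of those of 500 to 1000 bp and 51.1% (46.2 to 56.0%) of those of 1000 to 2000 bp. It was 49.7% (42.0 to 57.4%) above 2000 bp.

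The score of the distant WT regions had a median of 6.93 (6.61 to 7.23), quartiles of 4.81 and 10.1, and a range of 3.12 to 60.4. The nearer WT regions had a median of 5.01 and the distant KD regions one of 6.30. The distant WT median was above that of distant KD regions on 15 of 18 chromosomes. A score of at least 10 was reached by 283 distant WT regions (26.3%), by 24.1% of distant KD regions and by 14.3% of nearer WT regions. KD regions at 5 kb or less from a common region had a median of 4.34, and 2.55% of them reached 10. Higher scores in distant than in nearer regions were thus not particular to WT regions. A score below 4 was seen for 118 of the 1075 (10.98%). Score and length went together across the 1075 regions (Spearman's rho 0.66, across regions of the same libraries), and rho was 0.58 in nearer WT regions and 0.45 in distant KD regions. Both come from the signal that the listing used, so they describe the regions and test nothing.

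**Figure D1:**
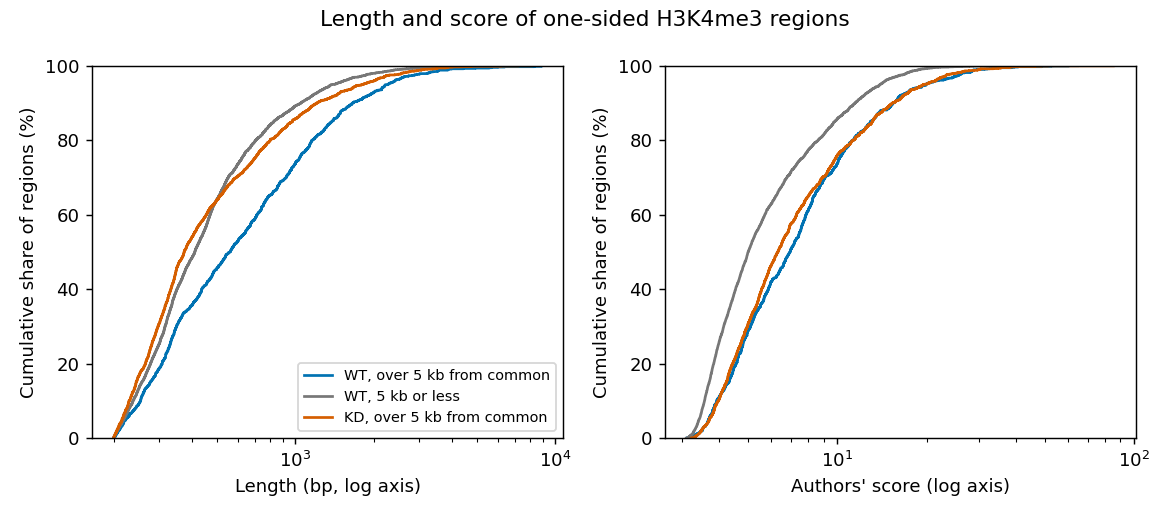
Cumulative share of regions by length in bp (left) and by the authors' score (right), both on log axes, for the 1075 distant WT regions, the 3940 WT regions at 5 kb or less from a common region and the 1920 distant KD regions. The distant WT curve lies to the right of both others in length (medians 561, 411 and 374 bp), while in score it lies close to that of the distant KD regions (medians 6.93 and 6.30).

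The gap to shared marks was part of the rule, so how it is distributed beyond 5 kb is given as a description, and nothing is concluded from it. The gap from a distant WT region to the nearest common region had a median of 41.4 kb (38.7 to 44.8 kb), with quartiles of 18.02 and 89.8 kb. For distant KD regions the median was 17.3 kb (16.2 to 18.2 kb). A gap of at most 10 kb was seen for 31.5% of the distant KD regions and for 11.4% of the distant WT regions.

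Of the distant regions in each class of this gap, the WT share was 16.9% (14.4 to 19.8%) at 5 to 10 kb, from 123 WT and 604 KD regions. It was 26.7% (23.4 to 30.3%) at 10 to 20 kb and 43.7% (40.1 to 47.3%) at 20 to 50 kb. At 50 to 100 kb it was 54.2% (49.5 to 58.9%), from 230 WT and 194 KD regions, and at 100 to 500 kb it was 49.9% (44.99 to 54.8%). Beyond 500 kb it was 43.4% (33.2 to 54.1%), from 36 WT and 47 KD regions.

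Pooled over both ends, the WT share was 21.5% (19.4 to 23.8%) up to 20 kb and 51.3% (48.1 to 54.6%) over 50 kb. By chromosome it ran from 7.14 to 39.0% up to 20 kb and from 30.4 to 75.6% over 50 kb. The share over 50 kb was the higher on 17 of 18 chromosomes. The exception was chromosome 14, with 36.6% up to 20 kb and 36.1% over 50 kb. These limits of 20 and 50 kb were set after the values had been seen. Up to 20 kb and over 50 kb in turn, the WT share was 17.01% and 45.2% for regions up to 500 bp and 29.7% and 57.0% for longer ones. Among regions with a score of at least 10 the shares lay closer together, at 26.5% (60 of 226) up to 20 kb and 43.4% (151 of 348) over 50 kb. At 100 to 500 kb, 65 WT and 112 KD regions reached that score.

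The median score was higher for WT regions in the classes up to 50 kb and higher for KD regions in those beyond. At 5 to 10 kb it was 6.45 for WT and 5.69 for KD regions, and at 50 to 100 kb it was 6.81 and 6.95. At 100 to 500 kb it was 7.78 and 11.3, and over 500 kb it was 9.85 and 11.5. Lengths kept their order in each distance class, with WT medians of 472 to 732 bp and KD medians of 349 to 581 bp. The distant WT regions thus varied less in score across these distance classes than the distant KD regions, which is a description of medians and was not tested.

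**Figure D2:**
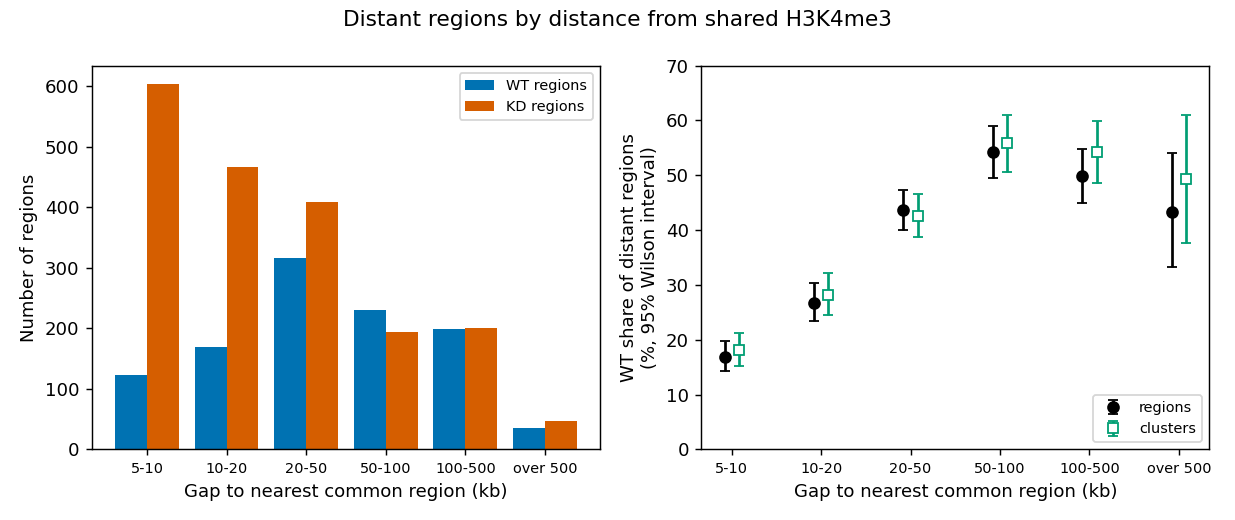
Number of distant WT and KD regions (left) and WT share in percent (right) by gap to the nearest common region in kb. Points are shares of regions and squares are shares of clusters, both with 95% Wilson intervals. Regions chained within 10 kb count once per distance class, so a cluster with members in several classes counts in each. The WT share is 16.9% at 5 to 10 kb and 54.2% at 50 to 100 kb.

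The space between shared marks was mostly empty of either kind. On the 18 autosomes 15191 stretches of over 10 kb lay between neighbouring common regions, and together they held 2027 Mb of sequence over 5 kb from a common region. Distant WT regions alone were present in 670 stretches (4.41%), distant KD regions alone in 1251 (8.24%), both in 79 (0.52%) and neither in 13191 (86.8%). The 8 remaining distant WT regions lay outside the first or last common region of their chromosome. Stretches with WT regions alone had a median width of 161 kb, against 68.4 kb for those with KD regions alone and 37.1 kb for all. Those with both had the widest median, 395 kb. A distant region needs over 5 kb on either side, so by the rule narrow stretches have little room for one.

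Of the 9133 stretches of 10 to 50 kb, 1.02% held a distant WT region and 5.43% a distant KD region. Of the 812 over 500 kb, 21.4% held a distant WT and 21.7% a distant KD region.

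Few distant WT regions had a KD region close by. Both kinds were sparse, with 0.53 distant WT and 0.95 distant KD regions per Mb of sequence over 5 kb from a common region. No expected count was set beside the gaps, so whether WT and KD regions kept apart was not tested. No distant WT region touched a KD region, and the smallest gap was 2842 bp. Contact was also absent for the 3940 nearer WT regions, with a smallest gap of 81 bp. Each list holds regions unique to a condition, so nothing is read from the lack of contact. The gap to the nearest KD region had a median of 181 kb (168 to 195 kb), with quartiles of 76.7 and 429 kb and a maximum of 4276 kb. By chromosome this median ran from 70.9 kb on chromosome 19 to 392 kb on chromosome 1. A KD region lay within 10 kb of 8 distant WT regions (0.74%) and within 100 kb of 348 (32.4%). Part of this distance follows from the rule, because most KD regions lie beside common regions. Of the nearer WT regions, 19.6% had a KD region within 10 kb.

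The 8 regions within 10 kb of a KD region were all single regions, and 5 of the 8 scored below 6. The closest pair was on chromosome 3, where the WT region at 151971163 to 151971617 (455 bp, score 8.25) lay 2842 bp from a KD region and 50.5 kb from the nearest common region. The second was on chromosome 6 at 38902939 to 38903235 (297 bp, score 11.6), with a gap of 4544 bp. The next 3 were chromosome 13 positions 100724828 to 100725584 and 49001835 to 49002182 and chromosome 18 positions 69148879 to 69149338, with gaps of 5221, 5663 and 6951 bp and scores of 3.70 to 5.11.

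Distant WT regions lay near each other far more often than near KD regions. Another distant WT region was found within 10 kb for 335 of 1075, a share of 31.2% (28.5 to 34.0%), whereas 4 had a distant KD region in that range. Neighbouring regions of 1 list may be pieces of 1 stretch, and no expected count was set beside these numbers. Whether WT and KD regions kept apart is therefore not read from them. By chromosome the share ran from 12.1% on chromosome 17 to 48.8% on chromosome 1, with a median of 27.3%. Among distant KD regions 37.7% (35.5 to 39.8%) had another distant KD region within 10 kb. The WT share was the lower on 14 of 18 chromosomes.

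Much of this nearness was between pieces lying close together. When members within 10 kb were chained, they formed 878 clusters, of which 740 were single regions, 105 pairs, 22 triples and 11 groups of 4 or more. The 197 gaps inside the clusters had a median of 422 bp, and 127 of them (64.5%) were at most 1 kb. The smallest was 102 bp, and in none of the lists did neighbouring regions lie 100 bp or less apart. When WT regions within 1 kb of each other were joined first, the share with another distant WT region within 10 kb was 13.97%. Clusters of at least 2 regions had a median span of 2890.5 bp, of which a median of 67.9% was covered by the regions themselves.

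Single and clustered regions had overlapping intervals in length. The median length was 567.5 bp (523 to 620 bp) for the 740 single regions and 529 bp (453 to 627 bp) for the 335 clustered ones, and the median scores were 7.01 and 6.80. Over all 1075 regions, the gap to the nearest other distant WT region had quartiles of 2.69 and 804 kb around a median of 132 kb (106 to 210 kb). For the 740 single regions the quartiles were 121 and 1309 kb and the median 474 kb. Counting WT regions at any distance from common regions, the median gap to the nearest was 36.5 kb, and for 532 of the 1075 (49.5%) the nearest WT region was not a distant one. The nearest listed region of any kind was a common region for 514 of the 1075 (47.8%), another WT region for 493 (45.9%) and a KD region for 68 (6.33%).

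**Figure D3:**
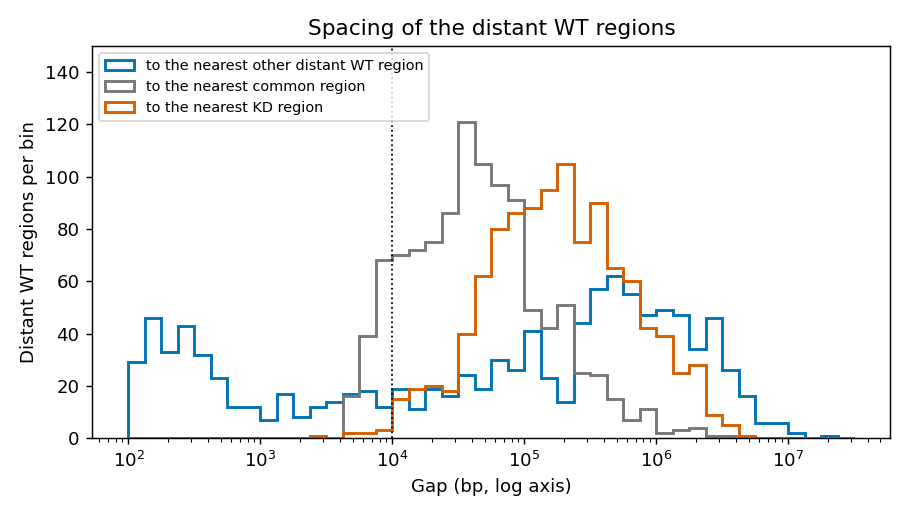
Gaps in bp (log axis) from each of the 1075 distant WT regions to the nearest other distant WT region, the nearest common region and the nearest KD region, with the number of regions per bin on the vertical axis. The dotted line marks 10 kb. Of the gaps between distant WT regions 230 are at most 1 kb, 269 lie between 1 and 100 kb and 576 above 100 kb, while 8 gaps to KD regions lie below 10 kb.

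The cluster with the most distant WT regions lay on chromosome 7 at 103935171 to 103965708. It held 14 regions of 245 to 3531 bp that covered 13804 of 30538 bp, and their scores lay between 4.81 and 13.7 with a median of 8.81. The longest, at 103961242 to 103964772, scored 12.3. The nearest common region was 34.7 kb away and the nearest KD region 1859 kb. Long and short regions were mixed in it, and no single region had most of the covered length.

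On chromosome 1 each of 3 clusters of 5 regions was built around 1 long region. At 90130058 to 90144165 a region of 8851 bp with a score of 14.9 was followed by 4 of 235 to 365 bp, with scores of 4.21 to 9.47. At 57008157 to 57020592 the long region measured 5567 bp and scored 21.2, and the others scored 4.65 to 10.5. That cluster lay 395 kb from the nearest common region and 1049 kb from the nearest KD region. At 189448745 to 189471181 a region of 6002 bp scored 48.9 and its neighbours 4.80 to 11.8. The remaining cluster among the top 5, on chromosome 19 at 47209172 to 47217531, held 6 regions with scores of 3.28 to 10.1.

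**Figure D4:**
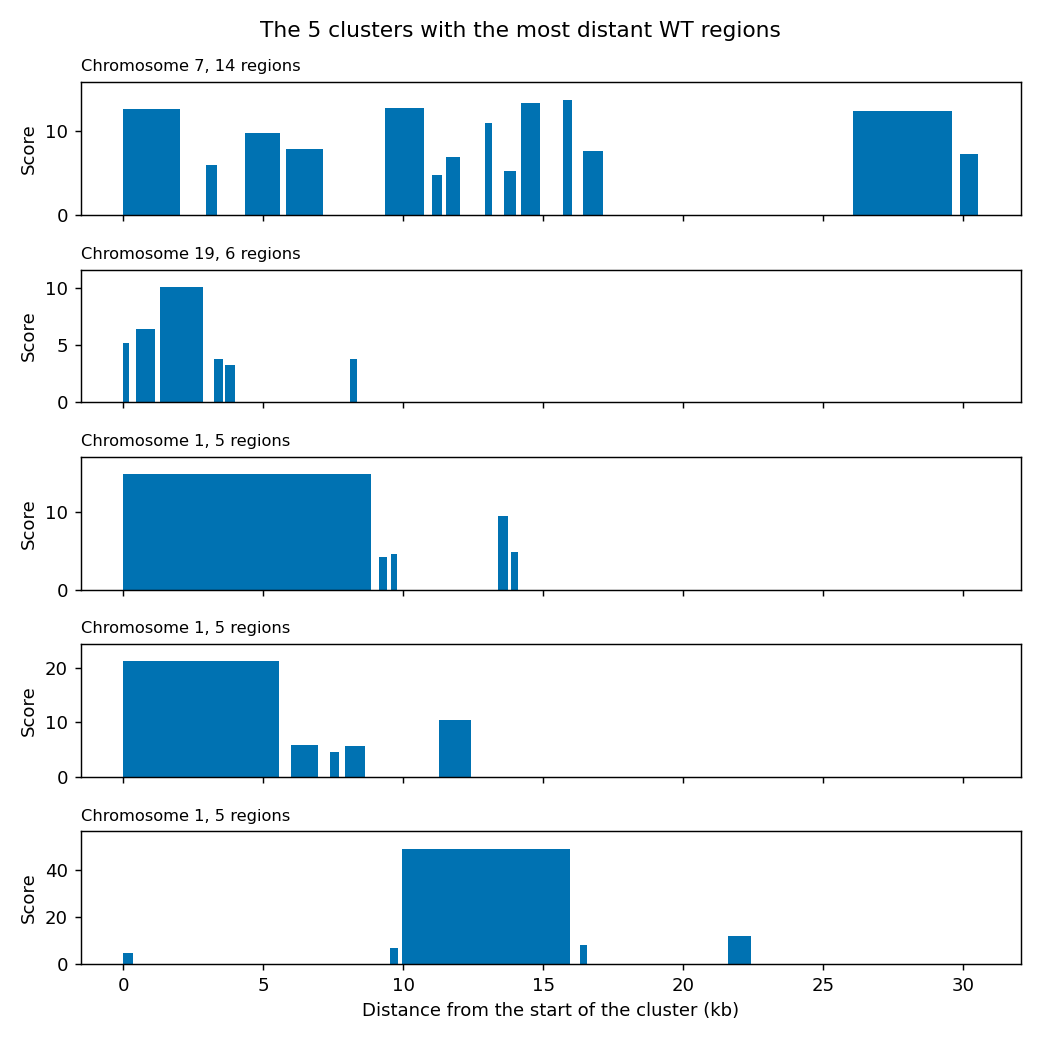
The 5 clusters with the most distant WT regions, each drawn from its own start in kb, with bars as wide as the regions and as high as the authors' score. On chromosome 7 the 14 regions have scores of 4.81 to 13.7, and on chromosome 1 a single long region stands in each cluster, with scores of 14.9, 21.2 and 48.9.

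Chaining members over gaps of up to 100 kb, a width chosen after the data were seen, gave 760 strings, of which 184 held at least 2 members. No KD region lay inside 181 of these 184 strings. Nothing is read from this, because short strings have little room for a KD region and no expected count was set beside it. Members also lie by rule away from common regions, beside which most KD regions lie. The strings with the most members were 16 regions over 99.2 kb on chromosome 7, which include the cluster above, and 14 over 220 kb on chromosome 1 from 189435639 to 189655486. The latter also held 17 nearer WT regions and 7 common regions, and its 14 distant members had a median score of 7.38. On chromosome 18, 8 members lay within 65.9 kb at 37788280 to 37854220 with no common, KD or nearer WT region among them, and their median score was 12.3. A second string of 8 on that chromosome, at 55085589 to 55280360 with 1 common region inside, had a median score of 5.28.

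Chromosomes differed in how many distant WT regions they held. Per Mb of sequence over 5 kb from a common region there were 0.53 distant WT and 0.95 distant KD regions. The WT density ran from 0.33 on chromosome 16 to 0.78 on chromosome 7, around a median of 0.51, and the KD density from 0.68 on chromosome 12 to 1.75 on chromosome 19. Distant KD regions outnumbered distant WT regions on all 18 chromosomes, by the smallest margin on chromosome 1 with 121 WT and 131 KD regions. Counted as clusters, the WT density ran from 0.29 on chromosome 14 to 0.55 on chromosome 7.

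**Figure D5:**
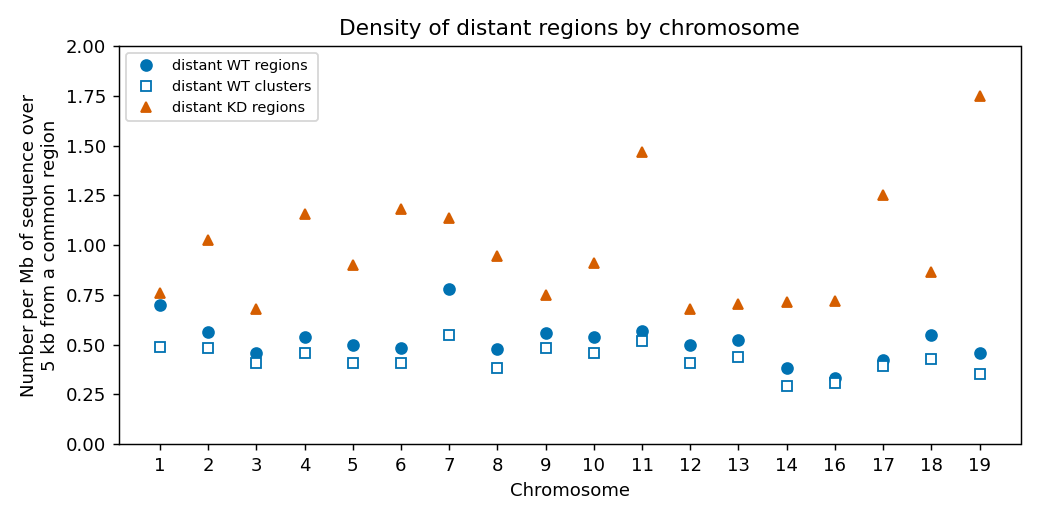
Distant WT regions, distant WT clusters and distant KD regions per Mb of sequence lying over 5 kb from a common region, by chromosome. Distant WT regions lie between 0.33 and 0.78 per Mb and distant KD regions between 0.68 and 1.75 per Mb, with chromosome 19 the highest for KD regions.

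The 10 distant WT regions with the highest scores lay on 6 chromosomes. The highest, on chromosome 1 at 181749101 to 181750613 (1513 bp), scored 60.4 and lay 27.2 kb from a common region and 411 bp from another distant WT region. The second, on chromosome 9 at 56513230 to 56514265, scored 52.6 and lay 97.3 kb from a common region. Scores of 48.9 and 40.7 followed, the first in the chromosome 1 cluster above and the second on chromosome 12 at 18564515 to 18565574. The region at 99748503 to 99750155 on chromosome 10 scored 39.3, and the one at 48493753 to 48494180 on chromosome 14 scored 33.5. Chromosome 6 had a pair, at 28929240 to 28930355 (32.7) and at 140369158 to 140371971 (32.0). The other two lay on the distal part of chromosome 12. Of the 10, 7 were single regions, and 54 of all 1075 scored at least 20.

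The distal end of chromosome 12 carries the immunoglobulin heavy-chain locus, which is rearranged in B cells. Between 113860040 and 116449944 it held 7 distant WT regions in 6 clusters, with scores of 5.65 to 38.6 and a median of 26.2, along with 2 KD regions, 1 of them distant. The 2 WT regions of highest score, at 113860040 to 113860593 (score 38.6) and 114251755 to 114252683 (33.3), lay 412 and 804 kb from the nearest common region. The region at 114487109 to 114487576 (26.2) had a KD region 9725 bp away. Limits of the locus were not drawn, and a part of clonal rearrangement in these scores was not tested.

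The 10 longest lay on 5 chromosomes, 5 of them on chromosome 1, and 8 of the 10 had another distant WT region within 10 kb. The longest measured 8866 bp on chromosome 1 at 14372046 to 14380911, with a score of 15.4 and another distant WT region close beside it. The region of 8305 bp on chromosome 18 at 55118330 to 55126634 scored 11.4, and the one of 6386 bp on chromosome 1 at 189899722 to 189906107 scored 25.6. The 2 without a close neighbour were on chromosome 3 at 159544270 to 159549189 (4920 bp, score 10.1) and chromosome 18 at 33593337 to 33597775 (4439 bp, score 28.3). Of these regions, 1 was among the top 10 of both length and score. Across all 1075 regions length and score went together, with a Spearman's rho of 0.66.

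The most isolated region lay on chromosome 1 at 101829467 to 101830995, with 3452 kb to the nearest common region, 3765 kb to the nearest KD region and a score of 6.06. The next, on chromosome 4 at 28813679 to 28814102 and on chromosome 7 at 9872362 to 9873184, lay 2466 and 2282 kb from common regions and scored 8.70 and 7.33. A pair on chromosome 14, at 84680194 to 84680813 and 84680963 to 84681386, lay 2235 kb away with 149 bp between its members. In all, 11 distant WT and 19 distant KD regions lay over 1 Mb from a common region.

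WT regions lay close to the 5000 bp limit on both sides of it. Just inside were regions with gaps of 5024, 5040, 5100, 5110 and 5127 bp, whose lengths were 255 to 1470 bp and whose scores were 3.53 to 7.66. Just outside were regions with gaps of 4980, 4976, 4975, 4963 and 4944 bp, with lengths of 323 to 740 bp and scores of 4.21 to 11.7. Between 5 and 6 kb there were 23 distant WT regions, and between 4 and 5 kb there were 39 WT regions.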

How the data were processed

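The submitters' processing notes name the build GRCm39, MACS2 2.2.6, SAMtools 1.6 and Bowtie2 2.2.9. Settings, filters and any pooling of replicates are not given in the sources at hand. The authors deposited 3 region lists with a score per region, described by the file headers as unique to KD, unique to WT and common. The score is undefined in the headers, exceeds 3 in every KD and WT region and is at most 2.86 in common regions.

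Gaps were the later start minus the earlier end. Regions were described with scipy 1.17.1, numpy 2.4.6 and pandas 2.3.3 under Python 3.11.15 and drawn with matplotlib 3.10.9. The code was tested on simulated regions with known gaps. Coordinates are 1-based. Alternatives were other limits for the gap, score, length and chaining, joined regions, and sets without the largest cluster or chromosome 1. No test across samples was possible, since 0 columns hold values per library; depth is unknown. Named regions were the 10 of highest score, the 10 longest, the 5 largest clusters, the 5 nearest to a KD region, the 5 farthest from a common region, and the 5 on either side of the 5000 bp limit; others were chosen after their values were seen. The members, lists and comparisons were chosen with earlier results of these data known. Genes, promoters, preset gene lists, base composition and sequences were not analysed here, because the tables at hand are for GRCm38.p6.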

Additional observations from a re-analysis of the deposited data

How the results depend on the processing

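Of 69 values under 10 alternatives, 46 differed from the reported value by less than its counting interval (for a count, by less than 1.5 times; for the share by chromosome, by less than 1 SD over chromosomes). For the others the cause was not tested, apart from what a filter removes by construction. Limits on score and length were applied to KD regions as well, so the gaps under them run only to KD regions and members that passed. With a score of at least 5, the median length was 758.5 bp and the share with another member within 10 kb 24.9%. The median gap was then 346 kb to a KD region and 365 kb to another member, and the median share by chromosome was 26.9%. With a length of at least 500 bp, 584 distant WT regions in 522 clusters remained, with a median length of 979.5 bp, 18.5% near another member, median gaps of 478 kb (KD) and 502 kb (member), a share by chromosome of 27.9%, and WT shares of 29.9% up to 20 kb and 56.9% over 50 kb. Joining within 1 kb gave 668 bp, 13.97% and a gap to the next member of 360 kb. Chaining within 5 and 20 kb gave 27.4% and 34.5%. With limits of 2 and 10 kb the WT share up to 20 kb was 18.7% and 26.7%, since other gaps enter it. With a score of at least 10 the WT share was 26.5% up to 20 kb and 43.4% over 50 kb. Both shares, the score of 10 and leaving out chromosome 1 were chosen after seeing the data. Leaving out chromosome 1 moved none of the values beyond these limits. No paired analysis was possible because no deposited value belongs to a single replicate, and no replicate could be left out. Alternatives on gene context were not run, and what depth limits cannot be stated.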

Other observations

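On the chromosomes outside the rule, the same distance gave other proportions. Chromosome 15 held 22 distant WT and 157 distant KD regions, a WT share of 12.3% (95% Wilson interval 8.26 to 17.9%), against 35.9% (34.2 to 37.6%) on the 18 autosomes described above. Its distant WT regions had a median length of 765 bp and a median score of 7.72. On X there were 73 distant WT and 25 distant KD regions, a WT share of 74.5% (65.0 to 82.1%), with a median length of 665 bp and a median score of 10.7 for the WT regions. On Y there were 1 distant WT and 8 distant KD regions. At any distance from common regions, there were 98 WT and 1646 KD regions on chromosome 15, 210 and 70 on X, and 1 and 19 on Y. The 18 autosomes held 5015 WT and 13088 KD regions. The WT and KD lists as a whole thus also differed in proportion between these chromosomes, and the shares above are not read as particular to distant regions. The median length of distant WT and distant KD regions was 765 and 392 bp on chromosome 15, 665 and 365 bp on X, and 288 (1 region) and 536.5 bp on Y.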
